A study of Homo sapiens with 18 samples.

Results

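Acetylated regions in gene deserts are stretches of the genome that carried acetylated lysine 27 of histone H3 (H3K27ac) far from any annotated protein-coding gene. Peaks from the 6 H3K27ac libraries that had 1 bp or more in common were joined into union regions, and each region took the summit of its peak with the highest −log10 q-value. Regions were kept if the summit lay outside all protein-coding gene bodies, over 100 kb from the transcription start site (TSS) of every protein-coding gene, and over 1 kb from the TSS of every long non-coding RNA (lncRNA) gene. On this rule, 4884 of 55382 union regions (8.82%) were gene-desert regions. Among union regions the rule used position alone, but a peak in any 1 of the 6 libraries, VPA libraries included, made a union region. The cells were HEK293T, an established human line derived from embryonic kidney, either untreated (CTRL) or kept in 1 mM valproic acid (VPA) for 1 day. H3K27ac and the DNA-binding factor CTCF were each profiled by chromatin immunoprecipitation and sequencing (ChIP-seq) in 3 libraries per treatment. The labels call the libraries triplicates and do not say whether they came from separate cultures, so the tests measure only the spread between these libraries.

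H3K27ac marks active promoters and active enhancers, and in gene deserts it mostly marks enhancers that can act on a promoter a long way off. Gene deserts often flank genes for developmental transcription factors and for cell adhesion molecules of the nervous system, and several hold arrays of enhancers for a single gene. VPA inhibits histone deacetylases, the enzymes that remove acetyl groups, and CTCF marks the boundaries and anchors of chromatin loops.

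The sequences around the summits of 5 gene-desert regions are given first, on the plus strand of hg38, because they stand for the patterns described in the text. The first belongs to one of the 5 strongest regions, and the next pair (GADD45G to DIRAS2 and NR2F2 to ARRDC4) to regions found in every VPA library and in no CTRL library. The region from MAT2B to TENM2 had a higher and that from BRINP2 to SEC16B a lower fold enrichment after VPA. Each run extends 100 bases to either side of the summit, and capitals mark a match to a motif searched in the summit windows (a forkhead and a SOX motif that overlap, in the GADD45G to DIRAS2 sequence).
CTAGE1 to RBBP8, chr18:22559718-22559918: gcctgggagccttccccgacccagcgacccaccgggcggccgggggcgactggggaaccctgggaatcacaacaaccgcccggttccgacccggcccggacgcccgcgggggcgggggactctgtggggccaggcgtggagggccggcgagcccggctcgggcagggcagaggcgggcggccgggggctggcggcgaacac
GADD45G to DIRAS2, chr9:90142464-90142664: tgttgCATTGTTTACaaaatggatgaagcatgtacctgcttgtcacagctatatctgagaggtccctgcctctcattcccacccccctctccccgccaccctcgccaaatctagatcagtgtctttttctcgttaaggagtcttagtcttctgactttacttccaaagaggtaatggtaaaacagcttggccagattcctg
NR2F2 to ARRDC4, chr15:97654730-97654930: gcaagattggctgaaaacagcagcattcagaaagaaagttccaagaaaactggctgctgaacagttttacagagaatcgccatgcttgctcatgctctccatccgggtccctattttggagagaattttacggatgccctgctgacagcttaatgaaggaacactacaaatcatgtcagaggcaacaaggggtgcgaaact
MAT2B to TENM2, chr5:163915437-163915637: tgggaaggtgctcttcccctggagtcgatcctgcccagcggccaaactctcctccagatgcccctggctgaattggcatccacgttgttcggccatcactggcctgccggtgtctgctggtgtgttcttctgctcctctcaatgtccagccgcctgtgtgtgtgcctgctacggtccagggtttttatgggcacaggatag
BRINP2 to SEC16B, chr1:177341022-177341222: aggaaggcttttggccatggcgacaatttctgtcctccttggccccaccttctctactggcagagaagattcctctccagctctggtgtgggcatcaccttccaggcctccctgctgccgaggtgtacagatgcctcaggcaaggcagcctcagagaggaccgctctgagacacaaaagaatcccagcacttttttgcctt
In the order given, the runs are 79.6%, 46.8%, 45.8%, 59.2% and 55.7% G and C and hold 25, 3, 4, 7 and 3 CpG dinucleotides.

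The deposited peak lists held 26299 to 40992 H3K27ac peaks and 36469 to 58782 CTCF peaks per library. They hold no read totals, and the background coverage recovered from them, a measure of relative depth, was 3.51 to 3.95 fragments over 12 libraries. The VPA lists of H3K27ac were longer than the CTRL lists in every library, and counts of regions with a peak were higher in VPA for all kinds of region. The libraries numbered 1 of both treatments stood apart from the other libraries. Over all other regions with a peak in every library, their median fold enrichment was 7.76 in CTRL and 7.53 in VPA, against 15.9 to 18.2 in the other 4. Fold enrichment is a ratio to local background, and their median summit coverage at the same regions was not lower. It was 281 fragments in CTRL and 247 in VPA, against 184 to 229 in the other 4. Of 5 marker genes of the line, CDH2, KRT18 and VIM had an H3K27ac peak within 1 kb of the gene start in all 6 libraries, and PAX2 and LIN28B had none in any. PTPRC, CD3E, ALB, MYH6 and UMOD, markers of blood, liver, heart and mature kidney tubule, had no such peak in any library.

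More gene-desert regions carried a peak after VPA, and the same held for all other kinds of region. A peak was found in 1573, 1992 and 2072 gene-desert regions in the CTRL libraries 1 to 3, and in 2520, 3463 and 3053 in the VPA libraries. All VPA libraries lay above all CTRL libraries. The mean was 1879 ± 268 (SD, n = 3) in CTRL and 3012 ± 473 in VPA, a ratio of 1.60, and the difference was as large as 3 against 3 libraries can show (two-sided exact permutation test, p = 0.1, which is the lowest this design can give, and 0.133 after adjustment over 20 exact tests). Within the libraries of the same number the ratio was 1.60, 1.74 and 1.47. The union of all regions gave a ratio of 1.45.

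The difference in number was not seen in lists of equal length, but such lists hold the same number of peaks by construction. A rise in all kinds of region could not show in them, only a change in the gene-desert part. When each list was limited to its 26299 strongest peaks, the length of the shortest, 1573, 1694 and 1769 gene-desert regions had a peak in the CTRL libraries and 1524, 1855 and 1726 in the VPA libraries. These values overlap, and the difference was 23 regions (exact permutation test, adjusted p = 1.0). Among all peaks, gene-desert regions made up 6.73%, 7.32% and 7.59% of the regions of the CTRL libraries and 7.28%, 8.64% and 7.96% of those of the VPA libraries, which overlap as well (exact permutation test, adjusted p = 0.375). With lists of equal length the difference in this share turned to −0.17 percentage points.

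**Figure D1:**
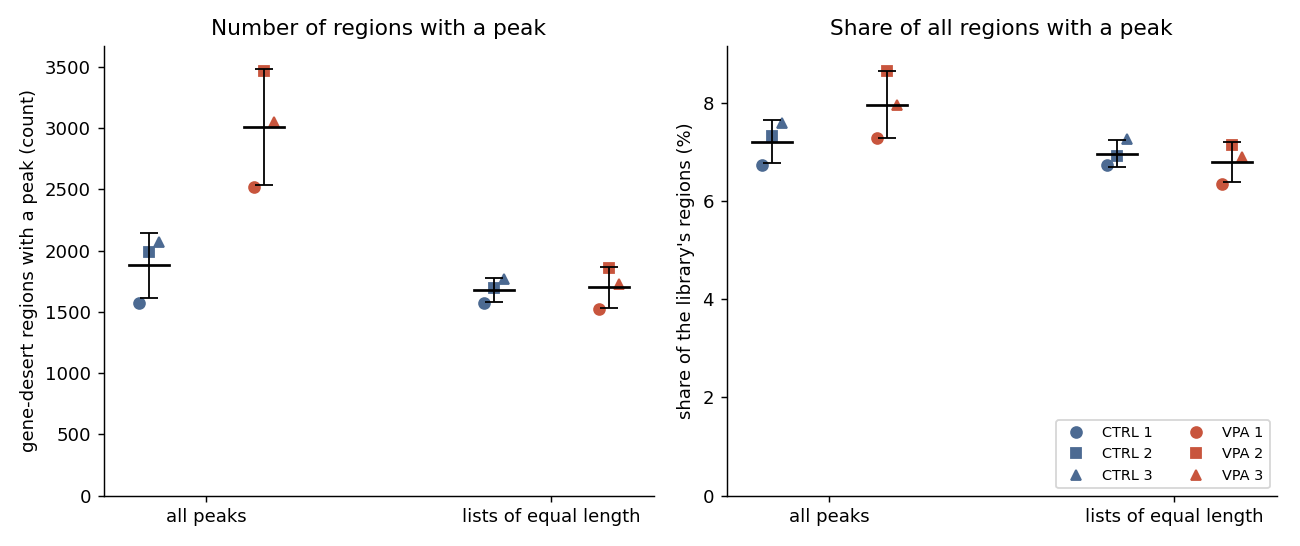
Gene-desert regions with an H3K27ac peak per library (left, count) and their share of all regions with a peak (right, %), with all peaks and with each list limited to its 26299 strongest peaks. Points are libraries (circle, square and triangle for 1, 2 and 3), horizontal lines means and bars SD (n = 3); the VPA libraries lie above the CTRL libraries at left with all peaks, and overlap with them in lists of equal length.

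The ratio between treatments also differed between kinds of region. Regions deep inside long genes, whose summits lie as far from every TSS but within a gene body, had a ratio of 1.40 (4061 regions). Intergenic regions at 5 to 100 kb from a TSS had a ratio of 1.88 (9638 regions), and the remaining 36799 regions 1.37. On the log2 scale, the number of gene-desert regions over that of the regions deep inside genes was higher in VPA by 0.19 (0.11 to 0.12 in the CTRL libraries and 0.28 to 0.33 in the VPA libraries, which do not overlap). Against intergenic regions at 5 to 100 kb it was lower by 0.24 in VPA, and against the remaining regions higher by 0.23. These 3 comparisons were chosen after the data were seen, and each reached the smallest p the design allows (two-sided exact permutation test, p = 0.1 before and after adjustment over the 3).

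The pattern over the libraries was uneven. Of the 4884 gene-desert regions, 1050 (21.5%) had a peak in all 6 libraries, against 33.2% of all union regions, and 1692 (34.6%) had a peak in 1 library alone, against 30.4%. The lone peaks came from CTRL libraries 1 to 3 in 79, 86 and 112 regions and from VPA libraries 1 to 3 in 394, 653 and 368. Over all union regions most lone peaks came from VPA libraries too, with 970, 693 and 782 in CTRL and 5444, 5044 and 3887 in VPA. Regions found in all VPA libraries and in no CTRL library numbered 216 (4.42%), where the background over all union regions was 4.12%. Regions with the reverse pattern numbered 11 (0.225%), against 0.139%. Both shares are near the background. In lists of equal length the 2 patterns held 46 and 40 gene-desert regions. From the libraries numbered 2 and 3 alone, a choice made after the data were seen, they held 640 and 57. No share over all union regions is at hand for these 2 settings, so these counts say nothing particular to gene deserts.

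The regions with peaks only in VPA were mostly weak, with some of middling rank. The 5 gene-desert regions with peaks only in VPA and the highest mean rank (rank of the −log10 q-value within a list, 100 for the strongest) had mean ranks of 56.2 to 59.0. The region between GADD45G, a stress-response gene, and DIRAS2 at chr9:90142265-90142818 had fold enrichments of 6.20, 11.7 and 11.4 in the 3 VPA libraries. It shared at least 1 bp with a CTCF peak in 2 of 3 CTRL and 3 of 3 VPA libraries, so CTCF was found at this site without VPA. The region at chr15:97654311-97655173, between NR2F2, a nuclear receptor of embryonic development, and ARRDC4, had fold enrichments of 5.77, 10.5 and 10.1 and no CTCF peak. Another 2 lay between SEPTIN9 and TNRC6C on chromosome 17 and between ZNF184 and H2BC13 in the histone gene cluster of chromosome 6, with fold enrichments of 4.02 to 7.69. Over all 216 regions the median fold enrichment was 4.14, 3.79 and 3.59 in the 3 VPA libraries and the median rank 29.2, 35.0 and 30.7, below the medians of all gene-desert peaks in the same libraries (4.49, 4.12 and 4.37, and ranks of 39.9, 38.4 and 40.2).

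The regions found only in CTRL were few. Of the 5 with the highest mean rank, the strongest is not described here, and the next 4 had mean ranks of 21.1 to 24.3 and fold enrichments of 2.04 to 6.49. They lay between KCNJ18 and WSB1, TLE4 and TLE1, SUGCT and INHBA, and CWC22 and UBE2E3. None of the 11 regions shared a base with a CTCF peak region (0 of 11, 95% Wilson interval up to 25.9%).

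Gene-desert regions lay at a median of 245 kb from the nearest protein-coding TSS, with quartiles of 153 and 481 kb. The 1959 regions at 100 to 200 kb had means of 786 in CTRL and 1235 in VPA (ratio 1.57), and the 434 regions beyond 1000 kb means of 139 and 231 (ratio 1.66). In between, the ratio was 1.60 at 200 to 500 kb and 1.68 at 500 to 1000 kb. The share with a peak in all 6 libraries was 23.3%, 21.9%, 18.9% and 15.9% over these 4 bins, lower with each step. The share with peaks only in VPA was 4.49%, 4.71%, 4.38% and 3.00%, with overlapping 95% Wilson intervals, which cover counting error only. Just inside the threshold, at 100 to 120 kb, 22.1% of 574 regions had a peak in all 6 libraries, and just outside it, at 80 to 100 kb, 21.5% of 720.

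**Figure D2:**
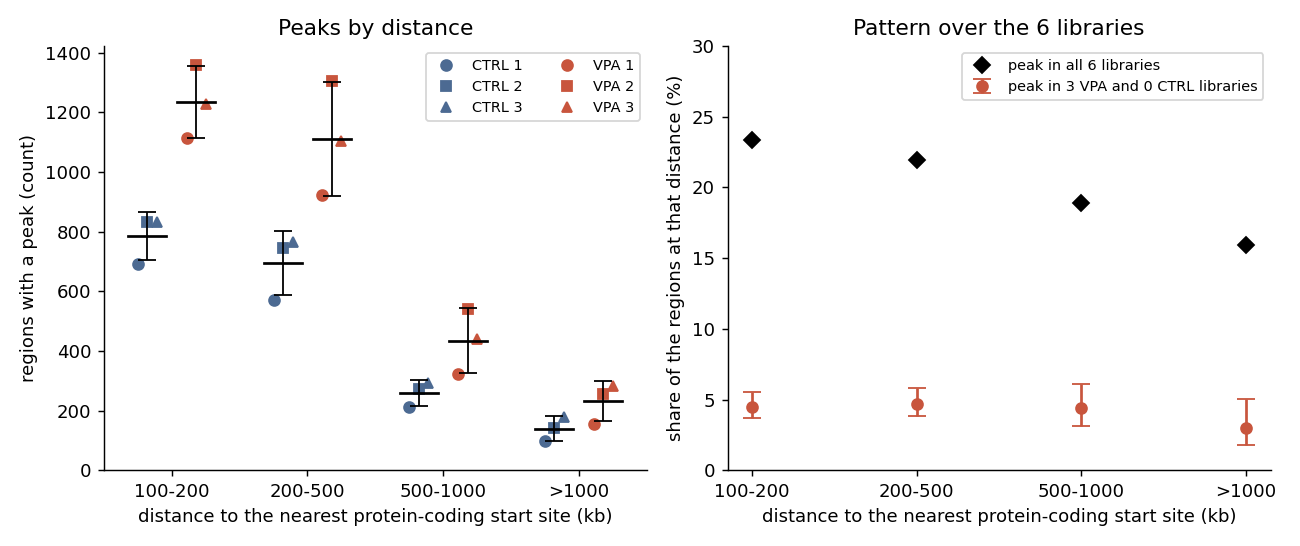
Gene-desert regions by distance to the nearest protein-coding TSS in kb. Left, the count of regions with a peak in each library (points), with mean (line) and SD (bar, n = 3); right, the share (%) of the regions at each distance with a peak in all 6 libraries (diamonds) and with peaks only in VPA (circles, bars are 95% Wilson intervals), where the diamonds go down from 23.3% to 15.9% and the circles lie between 3.00% and 4.71%.

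The territory that the rule allows covered 889 Mb, 32.2% of the sequenced bases of chromosomes 1 to 22, and held 5.50 regions per Mb, against 27 per Mb in the rest. Chromosome 13 had the highest density, 9.25 per Mb, with 429 regions, and chromosome 19 the lowest, 1.03 per Mb, with 7. The regions came in groups: the median distance to the next gene-desert region was 13.6 kb, and 45.4% lay within 10 kb of another. They fell into 1051 gaps between protein-coding genes, and 142 gaps with at least 10 regions each held 52.0% of them. In 135 of these 142 gaps the mean number of regions with a peak was higher in VPA, with a median ratio of 1.66 and quartiles of 1.32 and 2.13. The gaps were picked by their number of union regions, and VPA peaks added most to that number. Of all gene-desert regions, 2848 (58.3%) had a peak in more VPA than CTRL libraries and 506 (10.4%) in fewer. Over all union regions these shares were 51.4% and 7.64%. The count of gaps is therefore no separate support for a rise.

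The largest numbers of regions did not all lie in ordinary deserts. The gap with the most, 79, ran from SRGAP2C to H3-7 over 22.5 Mb of chromosome 1, centromere included. There the counts were 9, 13 and 39 in the CTRL libraries and 13, 16 and 61 in the VPA libraries, so both libraries numbered 3 stood far above the others and the treatments overlapped. Chromosome 21 from its start to TPTE held 62 regions, with counts of 33, 43 and 40 in CTRL and 43, 47 and 50 in VPA. All 19 gene records that GENCODE calls artifacts lie on chromosome 21, so regions over them could lie nowhere else. The 14 union regions over these records were all gene-desert regions, 8 of them with a peak in all 6 libraries. The 3 regions farthest from any protein-coding TSS, 5482 to 5507 kb from TPTE, lay there too, and 2 of them were peaks of a single library. Between ZNF608 and GRAMD2B on chromosome 5, 57 regions had counts of 20, 27 and 36 in CTRL and 33, 45 and 43 in VPA, which overlap. Between ENSG00000197991 and ENSG00000237378 on chromosome 13, 56 regions had counts of 16, 5 and 6 in CTRL and 27, 36 and 17 in VPA, which do not overlap. In all, 224 gene-desert regions lay in 12 gaps of over 5 Mb. Without them, a choice made after the data were seen, the means were 1791 in CTRL and 2900 in VPA, a ratio of 1.62.

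The gap between KCNU1 and ZNF703 on chromosome 8, 0.76 Mb long, held 70 regions, and 3 of the 5 strongest gene-desert regions of the genome. It had counts of 23, 25 and 21 in CTRL and 48, 50 and 36 in VPA, with no overlap. ZNF703 encodes a zinc finger corepressor. The strongest of its regions spanned 31377 bp, with a mean rank of 96.9. Its fold enrichments of 142, 52.3 and 50.2 in CTRL and 61.6, 31.2 and 35.2 in VPA overlap between the treatments, and with the replicate number as a block its log2 change was −0.82 ± 0.21 (SE; limma, adjusted p = 0.0164). In this gap, then, more regions had a peak after VPA, while the strongest did not show a higher fold enrichment.

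The other 2 of the 5 strongest regions lay between CTAGE1 and RBBP8 on chromosome 18 and within the start of chromosome 21. The first, at chr18:22558428-22560844, is the CpG-rich region whose sequence opens the list, and had fold enrichments of 17.5, 57.9 and 49.7 in CTRL and 8.33, 29.0 and 24.6 in VPA. In each library number the VPA value was below the CTRL value. With the replicate number as a block this region was lower in VPA, with a log2 change of −1.03 ± 0.19 (SE; limma, adjusted p = 0.00359). The second, at chr21:6464449-6469261, overlapped the GENCODE artifact record ENSG00000274276 (chr21:6444869-6467513), and its log2 change was −0.36 ± 0.20 (SE; limma with the block, adjusted p = 0.215).

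Beside developmental genes, the gaps differed widely. Of 62 developmental regulators in a list chosen for their place beside gene deserts, 47 flanked a gap with gene-desert regions, 560 regions in all. The list had counts of 169, 214 and 236 in CTRL and 275, 419 and 354 in VPA, a ratio of 1.69, against 1.60 over all gene-desert regions. Its regions had peaks only in VPA in 5.0% of cases, against 4.42%.

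SOX9, a factor of cartilage and testis development, is known for the long desert on its KCNJ2 side. The gaps on both sides of SOX9 held 42 regions, with counts of 17, 25 and 24 in CTRL and 18, 31 and 26 in VPA. These overlap, and the means were 22 and 25. Beside NR2F2 there were 47 regions, with counts of 17, 22 and 23 in CTRL and 32, 36 and 34 in VPA, which do not overlap. Beside ZIC1, a zinc finger factor of the neural tube, 8 regions had counts of 0, 1 and 0 in CTRL and 2, 5 and 5 in VPA.

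Of 53 neural adhesion genes in a second list, 50 had that symbol in the annotation and 32 flanked gaps with gene-desert regions, 383 in all. Their counts were 94, 109 and 113 in CTRL and 169, 287 and 214 in VPA, a ratio of 2.12. Only 15.1% of these regions had a peak in all 6 libraries, against 21.5% of all gene-desert regions. Peaks only in VPA were found in 4.70% of them, near the 4.42% of all gene-desert regions. PCDH9, a protocadherin of the brain, had the most, 68, with counts of 18, 8 and 10 in CTRL and 30, 48 and 22 in VPA. Beside SLITRK6 the counts were 9, 6 and 5 in CTRL and 20, 35 and 20 in VPA. Both lists were chosen with earlier results of these data known, and their differences from the other gene-desert regions were not tested.

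**Figure D3:**
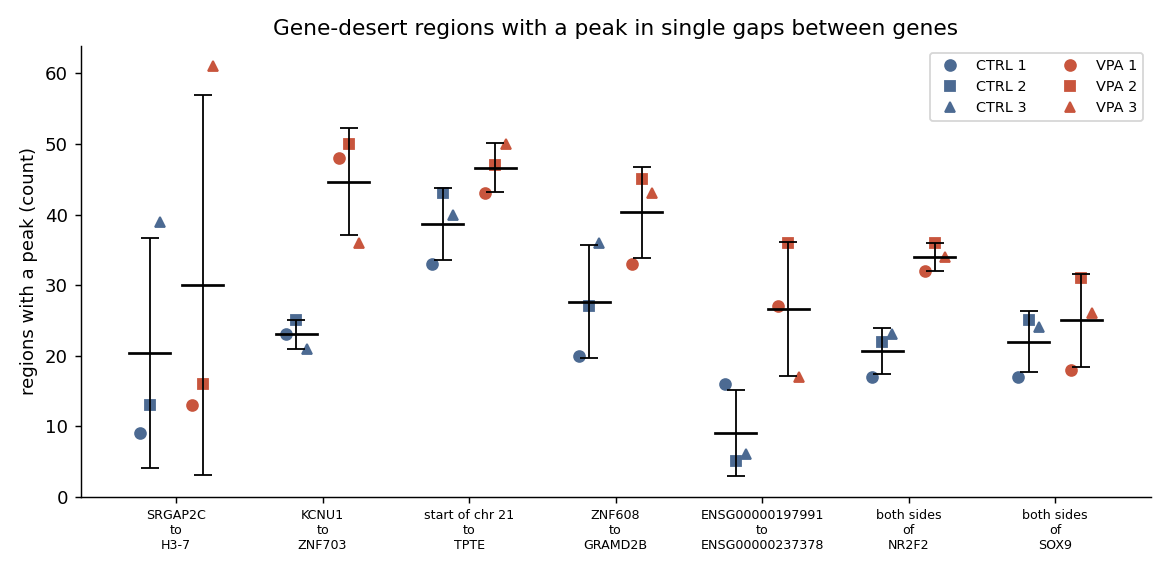
Gene-desert regions with a peak (count) in 5 of the gaps between protein-coding genes with the most regions, and in the gaps on both sides of NR2F2 and SOX9. Points are libraries, lines means and bars SD (n = 3); CTRL and VPA libraries do not overlap for KCNU1 to ZNF703, ENSG00000197991 to ENSG00000237378 or NR2F2, and overlap for SOX9 and for SRGAP2C to H3-7, where the libraries numbered 3 stand above the others.

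A run of closely spaced regions, singled out after its values were seen, lay over genes outside the protein-coding set. Between RNF187 and RHOU, 12 regions followed each other over 27.2 kb (chr1:228608392-228635633), and 12 gene-desert regions of the genome overlapped a 5S ribosomal RNA gene record. All 12 of the run had a peak in the libraries numbered 2 and 3 of both treatments, against 7 in CTRL 1 and 4 in VPA 1. Since copies of the 5S gene are nearly identical, reads there cannot be placed with certainty. Pseudogene records overlapped 3.52% of gene-desert regions, against 2.46% of all regions, and 1824 gene-desert regions (37.3%) had their summit within the body of a lncRNA gene, away from its TSS. These had a ratio of 1.58 between treatments, and the other 3060 a ratio of 1.62.

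Gene-desert peaks were weaker and narrower than those of other regions in every library. Their median rank was 33.7, 35.5 and 35.3 in the CTRL libraries and 39.9, 38.4 and 40.2 in the VPA libraries, and that of all other regions lay between 52.3 and 56.2. The within-library difference averaged −17.1 rank points and had this sign in 6 of 6 libraries (two-sided exact sign-flip permutation test, p = 0.031, the smallest possible, adjusted p = 0.0694). Median widths were 665 to 774 bp in CTRL and 664.5 to 811 bp in VPA, on average 470 bp below those of all other regions in 6 of 6 libraries (exact permutation test, adjusted p = 0.0694). No exact test of the family could reach an adjusted p of 0.05 in this design, where the smallest attainable value was 0.0521.

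Gene-desert peaks were close in strength to those of regions deep inside long genes. Their median rank was higher by 1.58 points in 6 of 6 libraries (exact permutation test, adjusted p = 0.0694), while their median fold enrichment differed by 0.028, with higher values in 4 of 6 libraries (exact permutation test, adjusted p = 0.868). Against intergenic regions at 5 to 100 kb, they were 46.6 bp narrower and had a fold enrichment higher by 0.30, both in 6 of 6 libraries (exact permutation tests, adjusted p = 0.0694 each). Their median rank was lower than that of these intergenic regions by 0.99 points, in 5 of 6 libraries (exact permutation test, adjusted p = 0.133), and their median summit coverage was 27 to 39 fragments, against 31 to 45, and lower in 6 of 6 libraries. For the remaining regions the median summit coverage was 60 to 258 fragments.

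The median rank and fold enrichment of gene-desert peaks were compared over lists of unequal length. The median rank was higher in VPA by 4.69 points, and the median fold enrichment went from 4.75, 4.69 and 4.85 in CTRL to 4.49, 4.12 and 4.37 in VPA, with no overlap for either (exact permutation test, adjusted p = 0.133 each). These medians run over different regions in each library, since more of the weak regions had a peak in VPA. With lists of equal length the difference in fold enrichment turned to 0.95 higher in VPA and that in rank was 17.3 points (exact permutation test, adjusted p = 0.167 each). The cut took more weak peaks from the longer VPA lists and ranks stayed those of the full lists, which raises both medians in VPA. Neither value can thus show a change at the regions. The length covered by gene-desert peaks went from 1.57, 2.21 and 2.25 Mb to 2.49, 3.95 and 3.22 Mb (ratio 1.60, exact permutation test, adjusted p = 0.133). In lists of equal length the difference in covered length was 0.52 Mb, against 1.21 Mb (exact permutation test, p = 0.3, adjusted p = 0.429).

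Change in fold enrichment was compared region by region in the 18407 regions that had a peak in every library, 1050 of them in gene deserts, which are the stronger gene-desert regions. In a limma fit of log2 fold enrichment without the library numbers, no region was called at an adjusted p under 0.05 (background 0% in each direction). At an unadjusted p under 0.05, 16 of the 1050 gene-desert regions were higher and 8 lower in VPA. Over all 18407 regions, 296 in either direction had such a p. The library numbers were taken as pairs, though the labels state no pairing and deviations from the group means set only libraries 1 apart. Libraries 2 and 3 were not told apart, as CTRL 2 correlated with VPA 3 (0.61) as closely as with VPA 2 (0.59). With the number as a block, 80 gene-desert regions (7.62%) were higher and 57 (5.43%) lower, against backgrounds of 4.64% and 11.6%. After each library was centred on the median of all regions, the block gave 102 higher and 40 lower, against 6.46% and 8.59%. On recovered summit coverage in place of fold enrichment, without a block, 61 were higher and 62 lower, against 4.06% and 13.4%. The median log2 change was 0.06 in gene-desert regions and −0.14 over all regions tested. This contrast depended on single libraries: the medians were 0.15 and 0.19 without VPA 1, 0.10 and 0.06 without CTRL 2, 0.09 and 0.02 without CTRL 3, 0.02 and −0.32 without VPA 2 or VPA 3, and −0.04 and −0.54 without CTRL 1.

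Regions of the other kinds moved differently under the same block. Of the 930 regions deep inside genes 4.52% were higher and 8.17% lower, of the 1937 intergenic regions at 5 to 100 kb 12.1% were higher and 4.44% lower, and of the 14490 remaining regions 3.44% and 13.2%. These differences between kinds of region were not tested.

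**Figure D4:**
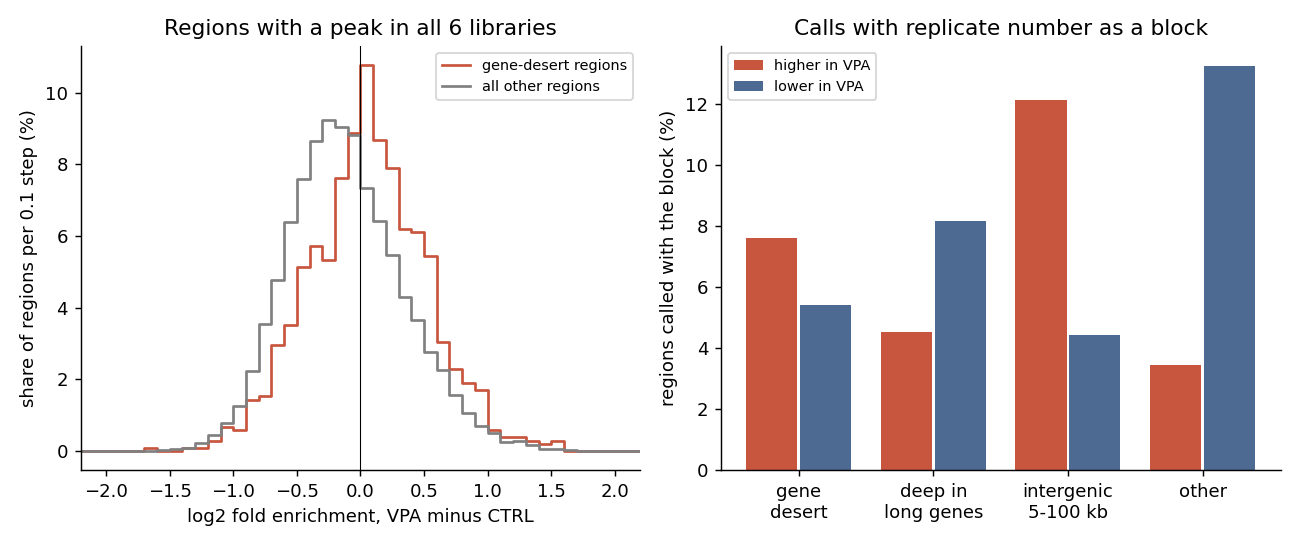
Left, log2 fold enrichment in VPA minus CTRL for regions that every library had as a peak, as the share (%) of regions per step of 0.1, for 1050 gene-desert regions and 17357 others. Right, the share (%) of each kind of region called higher or lower in VPA by limma with the replicate number as a block; gene-desert regions have 7.62% higher and 5.43% lower, and remaining regions 3.44% and 13.2%.

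The named regions are those with the largest log2 changes among the calls of the blocked fit, or the smallest p without it. The largest gain was at chr5:163914873-163916720, between MAT2B and TENM2, a teneurin of neuronal connections, with fold enrichments of 5.52, 3.08 and 2.47 in CTRL and 17.5, 10.3 and 6.01 in VPA. Here each VPA library lay above the CTRL library of its number and above all CTRL libraries, and the log2 change was 1.56 ± 0.24 (SE; limma with the block, adjusted p = 0.0019; without it, adjusted p = 1.0). The region at chr12:67388318-67390129 between CAND1 and DYRK2, a kinase gene, went from 2.42, 4.14 and 2.96 to 6.41, 14.5 and 7.86, a log2 change of 1.54 ± 0.24. The region at chr9:113602065-113604218 between RGS3 and ZNF618 went from 1.89, 3.18 and 3.23 to 5.40, 8.38 and 10.2, a log2 change of 1.52 ± 0.24. The next lay between ENSG00000197991 and ENSG00000237378 on chromosome 13 and between WSCD1 and AIPL1 on chromosome 17, with log2 changes of 1.49 and 1.40. All 5 were also called on recovered summit coverage.

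The largest loss was at chr9:79255099-79258443, 314 kb from the start of TLE4, a corepressor of the Groucho family. Its fold enrichments were 45.7, 12.4 and 16.6 in CTRL and 9.30, 6.84 and 4.94 in VPA, without overlap, and CTCF peaks lay in it in all 6 CTCF libraries. The log2 change was −1.64 ± 0.25 (SE; limma with the block, adjusted p = 0.0019). The region at chr1:177340050-177342730, between BRINP2 and SEC16B, went from 9.29, 9.69 and 6.54 to 4.35, 2.8 and 2.75. The region at chr2:111418543-111421070, between BCL2L11, a pro-apoptotic gene, and ANAPC1, went from 7.13, 7.84 and 6.67 to 3.42, 2.66 and 2.91. Their log2 changes were −1.38 and −1.27. Losses of −1.19 and −1.16 followed in the segmental duplications of chromosome 1 on either side of NBPF11, where reads of near-identical copies cannot be placed with certainty, and a loss of −1.12 between NKX1-1 and FAM53A on chromosome 4.

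CTCF was less frequent at gene-desert regions than at other intergenic ones. In the CTRL libraries 21.2%, 20.2% and 19.9% of the gene-desert regions with a peak shared at least 1 bp with a CTCF region of the same treatment (found in at least 2 of 3 CTCF libraries), and in the VPA libraries 19.9%, 17.1% and 18.6%. The highest VPA value and the lowest CTRL value were both 19.9%, and the means differed by −1.91 percentage points (exact permutation test, adjusted p = 0.133). In lists of equal length the difference was −0.13 percentage points (exact permutation test, adjusted p = 1.0). Intergenic regions at 5 to 100 kb had 31.2% to 35.1%, which is 14 percentage points more on average and higher in 6 of 6 libraries. Regions deep inside genes had 16.1% to 17.8%, lower by 2.30 points in 6 of 6 libraries (exact permutation tests, adjusted p = 0.0694 each). Of all CTCF summits, 1.24% to 1.51% in CTRL and 1.28% to 1.38% in VPA lay in gene-desert regions, which overlap (exact permutation test, adjusted p = 1.0).

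CTCF at regions with peaks only in VPA was mostly found without VPA too. Of the 216 gene-desert regions with peaks only in VPA, 44 (20.4%, 95% Wilson interval 15.5% to 26.2%) overlapped a CTCF region of the CTRL libraries and 43 (19.9%) one of the VPA libraries. Of them, 3 had it in CTRL alone and 2 in VPA alone. Of the 1050 gene-desert regions found in every library, 23.7% overlapped CTCF in CTRL and 22% in VPA. Counting any CTCF peak of the 6 CTCF libraries, 1070 gene-desert regions (21.9%) had one, and their H3K27ac summit lay a median of 227 bp from the nearest CTCF summit. In the gap over the centromere of chromosome 1 the share was 53.2%.

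The DNA at gene-desert summits was intermediate in base composition. Windows of 200 bp around the summits had a median of 50.0% G and C, against 53.5% in all regions and 39.0% in windows 2 kb to either side. The median ratio of observed to expected CpG was 0.28, against 0.37 and 0.17. CpG-rich windows, with at least 50% G and C and a ratio of at least 0.6, made up 12% of gene-desert summits, 26.1% of all and 1.55% of the windows 2 kb away. Among gene-desert regions they made up 23.8% of those found in every library and 2.78% of those with peaks only in VPA. The same difference was seen over all union regions, with 58.8% and 3.94%.

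Motifs were searched on both strands in the same windows, and a match is a description of letters, not a binding site. The GATA letters AGATAA were found in 10.6% of gene-desert windows, 6.08% of all region windows and 14.9% of the windows 2 kb away, and the homeobox letters TAATTA in 4.26%, 2.39% and 9.03%. The SOX letters AACAATG were found in 2.42%, 1.5% and 4.05%, and the octamer ATGCAAAT in 1.02%, 0.51% and 1.96%. These AT-rich motifs were thus more common than in all regions, which include promoters, and less common than in the surrounding desert. Regions deep inside long genes had like shares, with 8.54% for GATA, 4.38% for homeobox, 2.73% for SOX and 1.11% for the octamer. The forkhead letters TGTTTAC, which can overlap the SOX letters, were in 3.26%, 1.70% and 3.25%, the AP-1 letters TGANTCA in 6.67%, 4.94% and 6.39%, and the TEAD letters ACATTCC in 2.74%, 1.88% and 2.86%. The E-box CAGCTG and the CTCF core (CNAGGGGGC, CNAGGTGGC, CNAGAGGGC or CNAGATGGC) were above the surroundings, at 12.6% against 6.58% and at 3.89% against 1.75%, with 11.6% and 4.47% in all regions. The ETS letters CCGGAAGT, the CRE letters TGACGTCA and the NRF1 letters GCGCATGC were each in under 1% of gene-desert windows. In gene-desert regions with peaks only in VPA, AP-1 was found in 7.41% and GATA in 11.6% of 216 windows. Over all union regions with peaks only in VPA the shares were 7.05% and 7.62%.

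**Figure D5:**
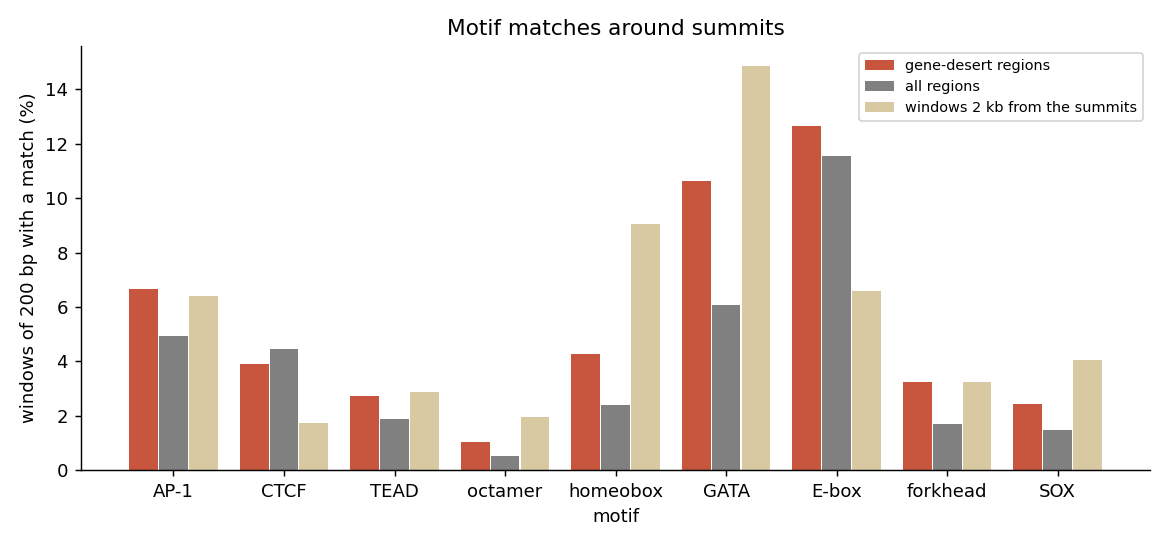
Share (%) of 200 bp windows with a match to each of 9 motifs, for gene-desert summits, the summits of all union regions, and windows 2 kb to either side of gene-desert summits. GATA, homeobox and SOX matches lie between the other sets, and E-box and CTCF matches lie above the windows 2 kb away.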

How the data were processed

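HEK293T cells, untreated (CTRL) or in VPA, were profiled for H3K27ac and CTCF in 3 libraries each, grouped by the labels. Reads were aligned to hg38 with Bowtie2, and the authors called peaks in each library with MACS3 (3.0.0a7 per the submitters' processing notes), without pooling. The use of input and the treatment of duplicates are not given in the sources used here. The deposited peak lists give the fold enrichment (a ratio to local background) at the summit, the −log10 p and q-values and a score, which the authors' caller derived from q. The 6 input libraries were not analysed here.

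Whole summit coverage was recovered from fold enrichment and p (tolerance 0.05). Genes were from GENCODE 44, chromosomes 1 to 22 only. Counts, shares and medians per library were compared by two-sided exact permutation tests, adjusted over 20 tests (Benjamini-Hochberg). Log2 fold enrichment was tested with limma 3.58.1 (R 4.3.3), checked on simulated data, over regions with a peak in all 6 libraries. Deviations of same-numbered libraries correlated at 0.86, 0.59 and 0.59, so the numbers were taken as pairs, although CTRL 2 with VPA 3 (0.61) was as close. Members, gene lists and alternatives were chosen with earlier results of these data known. Regions were named by rule: the 5 strongest, the 5 strongest with peaks only in VPA or only in CTRL, up to 5 called with the largest change in each direction or the 3 with the smallest p, the 5 fullest gaps, the 3 farthest, and genes of both lists. Alternatives varied the distances, overlap, q-value minimum, list length, scaling, block and libraries. Some named items are not reported here.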

Additional observations from a re-analysis of the deposited data

How the results depend on the processing

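Of 222 values of the exact tests under alternatives, 210 kept their direction and 12 reversed, and no adjusted p was under 0.0694. Some of the 210 could not reverse. The replicate block leaves the mean differences as they are. The q-value minimum, equal list length and 50% cover do not touch the share of CTCF summits. In lists of equal length the share of gene-desert regions differed by −0.17 percentage points and the median fold enrichment by 0.948, both reversed, and 46 regions were found only in VPA and 40 only in CTRL. Also in lists of equal length, the median width differed by 312 bp (6.83 bp with all peaks), the rank by 17.3 points, the covered length by 0.52 Mb and the CTCF share by −0.133 points. The cut took more weak peaks from the longer VPA lists, and ranks stayed those of the full lists. The equal-length medians of width, rank and fold enrichment therefore cannot show a change after VPA. The median width reversed to −5.33 bp without the lncRNA condition and to −78.0 bp with peaks covering 50% of the region, and ranged from −31.9 to 41.3 bp when single libraries were left out (−24.0 without CTRL 1, −31.9 without VPA 2). The share of CTCF summits reversed to 0.00892 percentage points at 50 kb and 0.00415 without the lncRNA condition, and ranged from −0.0684 to 0.0638 (0.0638 without CTRL 1, 0.0013 without VPA 3). Fold enrichment against regions deep inside genes ranged from −0.0046 to 0.0763, reversed without CTRL 2 (−0.0005) or CTRL 3 (−0.0046). Regions only in VPA numbered 358 at 50 kb, 128 at 200 kb and 272 to 577 with a library left out, and regions only in CTRL 7 at 200 kb, 20 with 50% cover and 12 to 49. With libraries 2 and 3 only, chosen after the data were seen, they were 640 and 57. For none of these counts under alternatives is a share over all regions at hand. The cause of the differences between settings was not tested. With the replicate block, limma called 80 of 1050 gene-desert regions higher and 57 lower in VPA, against 855 and 2137 of all 18407 regions. The block gave 102 and 40 after centring, against 1189 and 1581 of all regions. With libraries 2 and 3 alone it gave 42 and 48, against 445 and 1336. Without the block, recovered coverage gave 61 and 62, against 748 and 2460, and libraries 2 and 3 gave 37 and 45, against 405 and 1388. The fits with 1 library left out had no block and gave 0 and 0, as did the fit of all 6 libraries without a block. Blocked exact permutation tests of the per-library values could not go below p = 0.25. Read totals are unknown, so depth limits the weak regions to an unknown extent.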
